A study of Mus musculus with 6 samples.

Results

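Umod, Kap, Slc34a1 and Slc22a12 are genes of defined segments of the kidney tubule, and their probes were read here on arrays labelled muscle, adipose tissue and liver. They were chosen on these values, for their level on each array as a sign of kidney RNA and for their difference between MCSE and PBS. All 4 genes were found, each with 1 probe, among 16675 gene symbols and 29922 probes. Because the choice used the levels and the differences, both are given as descriptions with no test.

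The data were 6 one-colour arrays of ob/ob mice (B6.V-Lepob/J), a strain that lacks functional leptin and is obese. Mice were fasted for 4 h, were dosed orally with MCSE (seeds of Momordica charantia, the bitter melon, extracted with water) or with phosphate-buffered saline (PBS), and 15 min later were injected with glucose at 1 g/kg. They were killed 4 h later for tissue collection. The groups were MCSE muscle, PBS muscle, MCSE adipose, PBS adipose, MCSE liver and PBS liver, with 1 array in each. All mice shared the strain, the fast and the glucose load. The labels gave neither age nor sex, and did not say whether RNA of several mice was pooled. With 1 array per group no difference could be checked against replicates, and it is the small number of arrays that limits precision.

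The nephron filters blood in the glomerulus and then recovers water, salts and nutrients along a chain of tubule segments. The proximal tubule takes back most filtered solutes through brush border transporters, and the thick ascending limb reabsorbs salt and dilutes the urine. Slc34a1 encodes the sodium-phosphate cotransporter NaPi-IIa of the proximal brush border, and Slc22a12 the urate transporter URAT1 of the same membrane. Kap, the kidney androgen-regulated protein, is an abundant transcript of mouse proximal tubules. Umod encodes uromodulin, the main protein of normal urine, which is made in the thick ascending limb. None of the 4 is a known marker of muscle fibres, adipocytes or hepatocytes.

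The labels were checked against marker genes before the kidney genes were read. Values are log2 normalized intensities on a scale whose median over all probes was 8.95 on each array, with an upper quartile of 10.20 and a highest value of 16.41. Fast-fibre genes had a median of 15.85 on the MCSE muscle array and 15.87 on the PBS muscle array, and at most 9.44 elsewhere. On the MCSE adipose, MCSE liver and PBS liver arrays, hepatocyte genes (14 on the array, median 11.61, 11.54 and 11.87) and white adipocyte genes (9 on the array, median 14.81, 14.97 and 14.59) were both bright, so these labels do not name a tissue identified by its transcripts. White adipocyte genes were also bright on the MCSE and PBS muscle arrays (median 12.94 and 12.98). Their lowest median, 9.67, was on the PBS adipose array. The MCSE adipose and MCSE liver arrays were nearly the same, with a Pearson correlation of 0.982 over all probes. The PBS adipose array stood apart from the other 5 (correlations of 0.307 to 0.517), and proteasome genes, used by every tissue, had a median of 8.87 on it against 12.63 to 13.09 elsewhere. In bulk tissue, fewer cells of a type and less RNA per cell cannot be told apart.

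The start sites of the 4 genes are shown because all 4 were brightest on liver-labelled or MCSE adipose arrays. The windows are RefSeq promoters of the GRCm38.p6 build, 250 bases before to 50 after the annotated start, printed 5′ to 3′ on the gene's strand. Given in turn are Umod (chr7:119479213-119479512, minus strand), Kap (chr6:133853618-133853917, minus strand), Slc34a1 (chr13:55399398-55399697, plus strand) and Slc22a12 (chr19:6543021-6543320, minus strand). Capitals mark GTTAAT or its reverse complement ATTAAC, a half-site of the tubule and liver factor HNF1, searched on both strands, and TATAAA, the letters of a TATA box wherever they stand, searched on the gene's strand. No marked matches overlapped.
Umod: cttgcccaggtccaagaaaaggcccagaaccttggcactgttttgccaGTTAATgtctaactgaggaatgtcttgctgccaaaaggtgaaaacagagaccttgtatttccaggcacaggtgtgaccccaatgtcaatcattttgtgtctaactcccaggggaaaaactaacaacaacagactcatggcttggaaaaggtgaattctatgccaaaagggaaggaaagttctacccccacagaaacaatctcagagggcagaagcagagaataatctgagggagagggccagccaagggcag
Kap: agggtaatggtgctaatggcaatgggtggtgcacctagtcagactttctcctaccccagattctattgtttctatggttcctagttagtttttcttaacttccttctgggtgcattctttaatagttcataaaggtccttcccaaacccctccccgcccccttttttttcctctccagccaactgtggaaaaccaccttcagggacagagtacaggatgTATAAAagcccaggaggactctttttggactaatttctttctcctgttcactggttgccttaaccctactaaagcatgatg
Slc34a1: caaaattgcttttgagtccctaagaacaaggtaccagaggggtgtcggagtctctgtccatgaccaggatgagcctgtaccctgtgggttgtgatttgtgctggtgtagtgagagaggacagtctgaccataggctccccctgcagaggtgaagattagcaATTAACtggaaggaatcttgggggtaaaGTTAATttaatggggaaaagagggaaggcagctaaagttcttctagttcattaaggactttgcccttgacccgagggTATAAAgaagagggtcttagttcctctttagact
Slc22a12: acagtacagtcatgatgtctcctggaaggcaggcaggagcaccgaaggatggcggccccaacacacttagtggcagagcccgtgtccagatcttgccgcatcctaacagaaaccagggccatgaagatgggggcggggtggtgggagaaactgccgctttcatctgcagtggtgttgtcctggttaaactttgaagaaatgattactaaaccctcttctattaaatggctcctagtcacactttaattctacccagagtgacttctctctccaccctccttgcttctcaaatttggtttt
The Umod window held 1 HNF1 half-site at bases 49 to 54, counted from its 5′ end. The Slc34a1 window held 2, at bases 162 to 167 and 190 to 195, and TATAAA at bases 267 to 272, which lies past the annotated start, whereas a TATA box stands before it. The Kap window held TATAAA at bases 220 to 225 and no HNF1 half-site in these letters, and the Slc22a12 window held neither motif. Of 32851 windows of 300 bases, 7.10% held the HNF1 half-site and 8.32% held TATAAA. Counted per gene, 9 of 52 other kidney genes with a window held the half-site (17.3%), against 8.24% of 27025 genes. TATAAA was held by 7 of the 52 (13.5%), against 9.77% of the 27025. These shares were not tested. The letters AGAACA or TGTTCT, a half-site of the androgen receptor searched on both strands and not marked above, stood once in the Slc34a1 window and not in the Kap window, and in 19.0% of all windows. All of these motif hits are matches of letters in short windows and were not tied to any level.

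Umod, Kap and Slc34a1 were brighter on the MCSE adipose, MCSE liver and PBS liver arrays than on the other 3, and Slc22a12 was brightest on the MCSE adipose and MCSE liver arrays. Umod (probe mMC018170) lay at 9.13 with MCSE and 8.43 with PBS on the muscle arrays, at 14.33 and 8.35 on the MCSE and PBS adipose arrays, and at 14.27 and 12.47 on the MCSE and PBS liver arrays. Its brightest arrays were MCSE adipose and MCSE liver, and it was below the median of all probes on the PBS muscle and PBS adipose arrays. Slc34a1 (probe mMC021875) lay at 10.49 and 9.37 on the MCSE and PBS muscle arrays, 15.49 and 10.12 on the MCSE and PBS adipose arrays, and 15.44 and 14.24 on the MCSE and PBS liver arrays. The phosphate transporter was thus above the median of all probes on all 6 arrays, and brighter than 98.7% of probes on the PBS liver array.

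**Figure D1:**
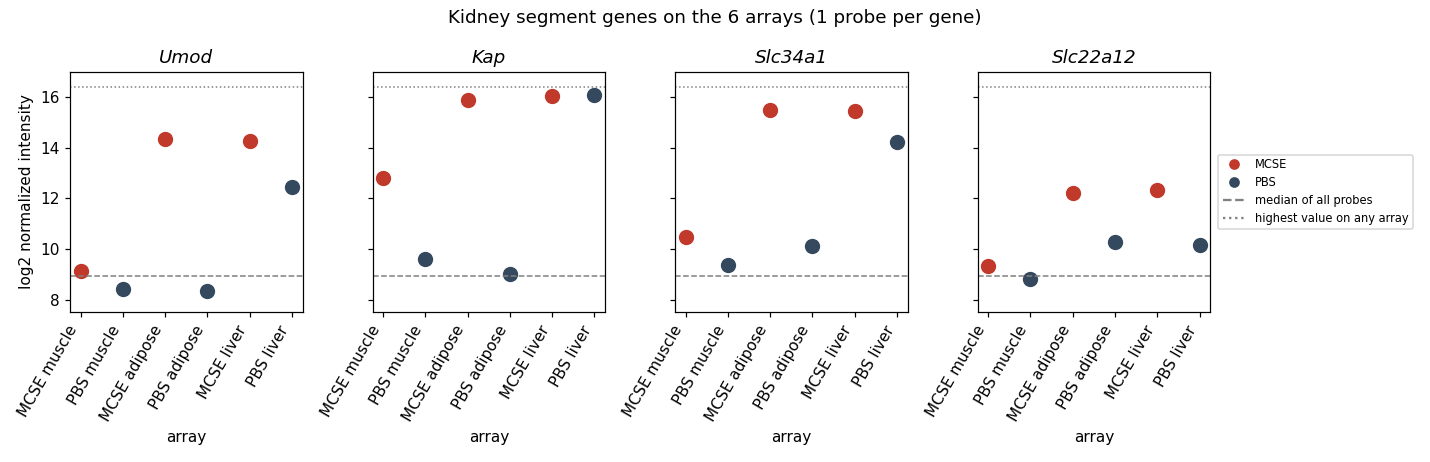
Level of the 1 probe of Umod, Kap, Slc34a1 and Slc22a12 on each array, as log2 normalized intensity (vertical axis) by tissue label and treatment (horizontal axis), with MCSE in red and PBS in dark blue. Each point is 1 array, the dashed line is the median of all probes (8.95) and the dotted line the highest value on any array (16.41). Kap lies near the top of the scale on the MCSE adipose and both liver arrays, and lies at 12.81 on the MCSE muscle array against 9.61 on the PBS muscle array.

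Kap (probe mMC004723) lay near the top of the scale on both liver-labelled arrays and the MCSE adipose array. It lay at 12.81 and 9.61 on the MCSE and PBS muscle arrays, 15.90 and 9.03 on the MCSE and PBS adipose arrays, and 16.05 and 16.07 on the MCSE and PBS liver arrays. On the PBS liver array it was brighter than 99.99% of the probes. The MCSE muscle array stood between the bright and the dim arrays for this gene, above 95.9% of its probes, where the PBS muscle array placed it above 65.0%.

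Slc22a12 (probe mMC002957), the urate transporter, had a narrower range than the other 3. It lay at 9.31 and 8.81 on the MCSE and PBS muscle arrays, 12.22 and 10.29 on the MCSE and PBS adipose arrays, and 12.34 and 10.17 on the MCSE and PBS liver arrays. Its PBS liver level was close to that on the PBS adipose array, and the MCSE adipose and MCSE liver arrays were the brightest. Over the 6 arrays it spanned 3.53 on the log2 scale, against 5.99 for Umod, 6.13 for Slc34a1 and 7.04 for Kap.

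As a gauge of how far probes disagree, the SD per probe was computed from how far the differences of paired probes for 1 gene lay apart. It mixes technical error with unlike responses of the 2 probes. The gauge was 0.517 for muscle, 0.611 for liver, 1.74 for adipose and 0.329 between the MCSE adipose and MCSE liver arrays, and it holds no variation between mice. The SD of the differences of all measured genes was 0.552 in muscle, 0.741 in liver and 2.19 in adipose. A gap above or below the gauge is therefore not read as above or below noise. The MCSE adipose minus MCSE liver differences of the 4 genes lay within the gauge, at 0.06 for Umod, -0.15 for Kap, 0.05 for Slc34a1 and -0.12 for Slc22a12. In the order of Umod levels, MCSE liver exceeded PBS liver and PBS liver exceeded MCSE muscle by more than the gauge of each pair, whereas PBS muscle and PBS adipose did not differ by more. For Kap the PBS liver, MCSE liver and MCSE adipose arrays had gaps below the gauge, MCSE muscle had wider gaps on both sides, and PBS muscle and PBS adipose differed by 0.58 against an SD of 1.49. For Slc34a1 the MCSE muscle, PBS adipose and PBS muscle arrays had neighbouring gaps below the gauge (0.36 and 0.76). For Slc22a12 the gaps between neighbours in the order PBS adipose, PBS liver, MCSE muscle and PBS muscle were below it, whereas PBS liver exceeded PBS muscle by 1.36 against an SD of 0.938.

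Across the 6 arrays the levels of Umod and Slc34a1 had a Pearson correlation of 0.993, Kap correlated with Slc34a1 at 0.931 and with Umod at 0.925, and Slc22a12 with Slc34a1 at 0.875. The pair furthest from each other was Kap and Slc22a12, at 0.678. These describe 6 arrays that share labels and a common normalization, 2 of them nearly the same, and carry no p-value.

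The first comparison set the liver-labelled arrays against the muscle-labelled arrays within a treatment. All 4 genes were at least 2-fold brighter under the liver label with MCSE and with PBS. Umod was 5.14 higher on the log2 scale with MCSE and 4.03 with PBS, Slc34a1 4.95 and 4.87, Kap 3.24 and 6.46, and Slc22a12 3.03 and 1.36. Over all measured genes 21.0% were 2-fold higher under the liver label with MCSE and 19.5% with PBS. Kap had the smaller difference with MCSE, where its muscle level was 12.81 against 9.61 with PBS, while its liver levels differed by -0.02. With PBS, 1 of 11709 measured genes had a higher difference than Kap.

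In the muscle pair Kap had the widest of the 4 differences, and the other 3 lay closer to the SD per probe. Kap was 3.20 higher with MCSE, or 9.20-fold, and 16 of 10711 measured genes had a higher difference. Slc34a1 was 1.12 higher, or 2.17-fold, Umod 0.70 higher, or 1.63-fold, and Slc22a12 0.50 higher, or 1.41-fold, which was below the SD per probe of 0.517. Thus 2 of the 4 genes were 2-fold higher and 0 lower, where 3.90% of all measured genes were 2-fold higher. Nothing is read from this count, since the contrast was used to choose the genes. The median difference was 0.91 for the 4 genes and -0.05 for all measured genes.

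In the liver pair the order of the 4 differences was another, with Slc22a12 at the top and Kap near 0. Slc22a12 was 2.17 higher with MCSE (4.49-fold), Umod 1.81 higher (3.50-fold) and Slc34a1 1.20 higher (2.30-fold), whereas Kap differed by -0.02. Thus 3 of 4 genes were 2-fold higher, where 8.27% of all measured genes were. The intensity of Kap was 67631 and 68769 on the MCSE and PBS liver arrays, close to the upper end of the scale.

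In the adipose pair all 4 genes were brighter on the MCSE array, by 5.99 for Umod, 6.87 for Kap, 5.37 for Slc34a1 and 1.93 for Slc22a12. The background of this pair was wide, with 37.5% of measured genes 2-fold higher and 34.3% 2-fold lower, and the PBS adipose array was the one on which proteasome genes were dim. Its SD per probe of 1.74 was close to the difference of Slc22a12, which 3041 of 13133 measured genes exceeded.

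Other kidney genes were followed through lists of nephron segments, which were drawn up with earlier results of these data known. The lists held 73 genes beside the 4, of which 67 were on the array, each represented by its brightest probe. A gene counted as measured in a pair when either array of the pair put it at or above the median of all probes. Such genes pass more readily where they are bright, so counts over all genes of the list on the array are given as well.

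Proximal tubule genes lay well above the median of all probes on the liver-labelled arrays and the MCSE adipose array. The 31 genes beside Kap, Slc34a1 and Slc22a12 had a median level of 9.07 and 8.66 on the MCSE and PBS muscle arrays, 12.45 and 9.22 on the MCSE and PBS adipose arrays, and 12.37 and 11.33 on the MCSE and PBS liver arrays. In the muscle pair 3 of 18 measured genes (3 of the 31 on the array) were 2-fold higher with MCSE and 0 lower (3.90% of all measured genes were higher and 1.88% lower), with a median difference of 0.50, or 0.38 over the 31 genes on the array. The 3 were Slc4a4, a basolateral bicarbonate cotransporter (1.47), Slc9a3, the apical sodium-proton exchanger (1.44), and Slc13a1, a sulfate transporter (1.23), named after their values were seen. A second, dim probe of Slc4a4 gave 0.03. In the liver pair 18 of 30 (18 of 31 on the array) were 2-fold higher and 0 lower (8.27% of all measured genes were higher and 6.01% lower), and the median difference was 1.23. Under the liver label against the muscle label, 21 of 26 measured genes of this list (21 of the 31 on the array) were 2-fold higher with PBS. With MCSE 26 of 30 (26 of the 31) were, and 1 gene was 2-fold lower with PBS and 2 with MCSE. Over all measured genes 19.5% were higher and 17.5% lower with PBS, and 21.0% higher and 16.8% lower with MCSE.

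**Figure D2:**
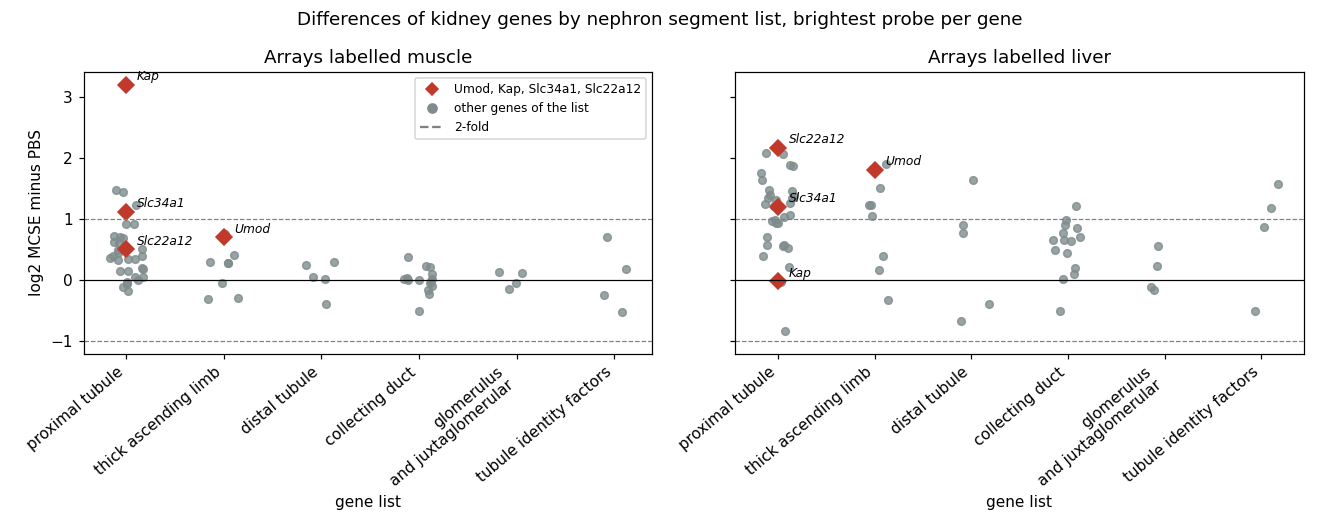
Difference in log2 normalized intensity between MCSE and PBS (vertical axis) for kidney genes grouped by nephron segment list (horizontal axis), on the arrays labelled muscle (left) and liver (right). Each point is the brightest probe of 1 gene, all genes of the list on the array are drawn, red diamonds are Umod, Kap, Slc34a1 and Slc22a12, and dashed lines mark 2-fold. Kap lies at 3.20 in muscle and at -0.02 in liver, and proximal tubule genes lie above 0 for the most part in both panels.

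Several proximal genes were read singly. Miox, the renal enzyme that breaks down myo-inositol, lay at 10.41 and 9.49 on the MCSE and PBS muscle arrays and at 15.31 and 14.34 on the MCSE and PBS liver arrays. It was 0.92 higher with MCSE in muscle and 0.97 in liver, so it stood on the same side in both pairs. Slc7a13, an amino acid transporter of the late proximal tubule, lay at 8.21 and 7.86 on the MCSE and PBS muscle arrays, below the median of all probes, and at 12.66 and 11.63 on the MCSE and PBS liver arrays. Lrp2 (megalin), an endocytic receptor for filtered proteins, lay at 12.09 and 10.20 on the MCSE and PBS liver arrays, and its partner Cubn (cubilin) at 11.51 and 10.81. On the MCSE and PBS muscle arrays Lrp2 lay at 8.18 and 7.74 and Cubn at 7.79 and 7.74, at or near the floor. A second probe of Lrp2 was dim on all 6 arrays, with a liver minus muscle difference of 0.46 with MCSE against 3.91 on the bright probe.

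Transporters of glucose, organic anions, phosphate and neutral amino acids also lay higher on the MCSE liver array than on both muscle arrays. Slc22a6, the organic anion transporter OAT1, lay at 9.26 and 8.57 on the MCSE and PBS muscle arrays and at 13.30 and 11.97 on the MCSE and PBS liver arrays. Slc34a3, the second phosphate cotransporter of the brush border, lay at 8.24 and 8.31 on the MCSE and PBS muscle arrays and at 10.94 and 8.88 on the MCSE and PBS liver arrays. Its liver difference of 2.06 was close to that of Slc22a12, and it was dim on the PBS liver array. Slc6a19, the neutral amino acid transporter, differed by 0.14 in muscle and 1.46 in liver, and Slc22a8 (OAT3) by 0.94 in liver, with both muscle arrays at the floor of 7.74. Slc5a2, the glucose transporter SGLT2, differed by 0.20 in liver on its brightest probe and 0.85 on its second. Napsa, an aspartic protease of proximal tubule and lung, was above the upper quartile on all 6 arrays and differed by -0.19 in muscle and 1.75 in liver.

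Thick ascending limb genes beside Umod had a median of 8.89 and 8.84 on the MCSE and PBS muscle arrays, and of 11.49 and 11.21 on the MCSE and PBS liver arrays (8 genes). In the muscle pair 0 of 4 measured genes, and 0 of all 8, passed 2-fold in either direction, and with shares of 3.90% higher and 1.88% lower over all genes nothing can be read from so few. In the liver pair 5 of 8 were 2-fold higher and 0 lower, where 8.27% of all measured genes were higher and 6.01% lower. Slc12a1, the NKCC2 salt cotransporter that loop diuretics block, lay at 8.81 and 8.52 on the MCSE and PBS muscle arrays and at 13.08 and 11.86 on the MCSE and PBS liver arrays. Its liver difference of 1.22 was smaller than the 1.81 of Umod, by less than the SD per probe of 0.611. Cldn16, a tight junction protein for magnesium, differed by 1.05 in liver, Egf, a growth factor precursor of this segment and the distal tubule, by 1.22, and Kcnj1, the ROMK potassium channel, by 0.40. The other 2-fold higher genes of the list, named after their values were seen, were Bsnd, a chloride channel subunit (1.90), and Cldn10, a tight junction protein (1.51). Egf lay at 11.28 and 11.33 on the MCSE and PBS muscle arrays, so it did not separate the labels as sharply as Umod did.

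Distal tubule genes were mixed in the liver pair, with 3 of 5 above 0. In the distal tubule list 1 of 5 genes was 2-fold higher in the liver pair (8.27% of all measured genes), Slc12a3, the thiazide-sensitive NCC cotransporter, at 1.64 on its brightest probe and 2.27 on its second. Calb1 (calbindin-D28k), a calcium buffer, lay at 8.02 and 8.01 on the MCSE and PBS muscle arrays and at 10.87 and 9.97 on the MCSE and PBS liver arrays, and its second probe gave nearly the same difference (0.89 against 0.90). Kl (Klotho), a co-receptor for the phosphate hormone FGF23, differed by 0.77 in liver and 0.04 in muscle. Trpm6 and Trpv5, named after their values were seen, lay lower with MCSE in liver, by -0.68 and -0.39 on their brightest probes. Trpv5 was also lower under the liver label than under the muscle label with MCSE (-0.71). Of 13 measured collecting duct genes (15 on the array), 1 was 2-fold higher in the liver pair and 0 were lower, with a median of 0.65. That share is near the 8.27% of all measured genes that were higher. The gene was Slc4a9, an anion exchanger of intercalated cells, at 1.22, named after its values were seen. Aqp2, the vasopressin-regulated water channel, lay at 11.28 and 10.62 on the MCSE and PBS liver arrays, and Scnn1g, a subunit of the sodium channel ENaC, differed by 0.49. Atp6v1g3, a proton pump subunit of intercalated cells, lay at 8.52 and 8.43 on the same arrays, below the median of all probes.

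Glomerular genes had a median near that of all probes, at 8.95 on the MCSE liver array against 8.71 on the PBS liver array. Of their 4 genes on the array, 2 reached the median of all probes with MCSE and 1 with PBS under the liver label. Nphs1 (nephrin), of the podocyte slit diaphragm, lay between 8.52 and 9.10 on all 6 arrays. Podxl of the same list, named after its values were seen, lay at 9.55 and 9.70 on the MCSE and PBS muscle arrays. It lay at 10.99 and 11.16 on the MCSE and PBS liver arrays. It was the 1 of the 4 genes that was 2-fold higher under the liver label than under the muscle label (21.0% of all measured genes with MCSE and 19.5% with PBS). Podocytes are a small fraction of kidney cells, and a probe near the median of all probes gives no measure of their number. A list of 4 factors and adhesion molecules of the tubule was mixed, with a median liver minus muscle difference of 0.20 with MCSE and -0.55 with PBS. Cdh16 (Ksp-cadherin) lay at 9.79 and 9.08 on the MCSE and PBS muscle arrays and at 14.38 and 12.81 on the MCSE and PBS liver arrays, with a liver difference of 1.57. Pax8, a transcription factor of the nephron, stayed between 9.10 and 9.97 on the arrays other than PBS adipose. The other 2, named after their values were seen, were the transcription factors Pax2 and Lhx1. Their liver minus muscle differences were -0.85 with MCSE and -0.86 with PBS for Pax2, and -0.05 with MCSE and -1.49 with PBS for Lhx1. Second probes gave 0.03 with MCSE and -0.11 with PBS for Pax2, and 0.76 with MCSE and -0.07 with PBS for Lhx1. Between MCSE and PBS in the liver pair, Pax2 differed by -0.52 (0.08 on its second probe) and Lhx1 by 1.19 (1.09 on its second).

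**Figure D3:**
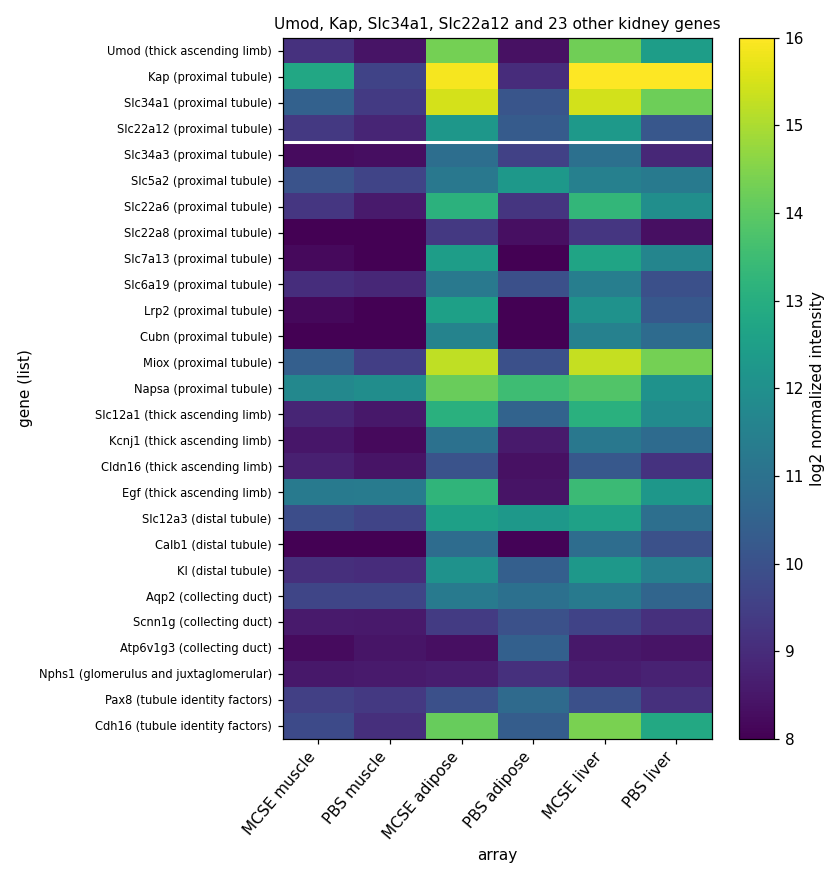
Log2 normalized intensity (colour scale) of Umod, Kap, Slc34a1 and Slc22a12 (above the white line) and 23 other kidney genes, 1 row per gene by its brightest probe, on the 6 arrays (columns). Levels are to be compared along a row, since probes differ in sensitivity. Most rows are brightest on the MCSE adipose and MCSE liver arrays, intermediate on the PBS liver array and dim on the muscle arrays. Slc5a2, Scnn1g, Atp6v1g3 and Pax8 are brightest on the PBS adipose array, as is Nphs1, which is dim on all 6. A second probe of Slc5a2, not drawn, was dimmest on the PBS adipose array (8.51) and lay at 12.91 on the MCSE liver array.

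Over all 67 genes beside the 4, 27 of 62 measured genes (27 of all 67) were 2-fold higher in the liver pair and 0 lower, and the median was 0.94 (0.90 over all 67) against -0.02 for all measured genes. In the muscle pair 3 of 39 (3 of all 67) were 2-fold higher, all of the proximal list, and 0 lower, and the median was 0.17. With an upper quartile filter on dim genes 1 of these 3 was left. In the adipose pair 37 of 64 (37 of all 67) were 2-fold higher and 13 lower, where 37.5% of all measured genes were higher and 34.3% lower. Of all 71 kidney genes 21 were brightest on the PBS adipose array by the probe used, and the summed intensity of the 67 was 377738 and 131976 on the MCSE and PBS adipose arrays. Among these, Slc5a2, Slc4a4 and Lhx1 had a second probe that was dimmest on the PBS adipose array (8.51, 7.88 and 8.34). The second probes of Pax2, Hsd11b2 and Aqp6 were brightest on it too. Hsd11b2 and Aqp6 were named after their values were seen. Under the liver label against the muscle label, 44 of 62 (44 of all 67) were higher and 2 lower with MCSE. Over all measured genes 21.0% were higher and 16.8% lower in that comparison. With PBS 34 of 55 (34 of all 67) were higher and 4 lower, where 19.5% of all measured genes were higher and 17.5% lower. The lower genes, named after their values were seen, were Slc9a3 (-1.71) and Slc4a4 (-1.03) with MCSE, and Lhx1 (-1.49), Slc9a3 (-1.34), Bsnd (-1.29) and Rhcg (-1.01) with PBS. Second probes of Slc4a4 with MCSE (0.30) and of Lhx1 with PBS (-0.07) were not 2-fold lower, so these calls rest on the brightest probe alone. Between the MCSE adipose and MCSE liver arrays, 70 of all 71 kidney genes differed by less than 2-fold. The exception, named after its values were seen, was Akr1c21, a hydroxysteroid dehydrogenase abundant in mouse kidney, at 1.94.

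Lists of other tissues were read beside the kidney genes in the liver pair. Of 14 hepatocyte genes, 1 was 2-fold higher with MCSE (Cyp2e1, a cytochrome P450, 1.18) and 1 lower (Fgb, a fibrinogen chain, -1.45), and the median was -0.15. Of 9 white adipocyte genes 1 was 2-fold higher (Plin1, which coats lipid droplets, 1.10), and the median was 0.36. With 8.27% of all measured genes higher and 6.01% lower, nothing is read from these counts of 1. Of 8 measured cardiac genes 6 were 2-fold lower with MCSE and 0 higher, where 6.01% of all measured genes were lower, and the median was -1.45. Among them, named after their values were seen, were the sarcomere genes Tnnt2 (-2.86), Myl3 (-2.89) and Actc1 (-2.77). The 9 cardiac genes on the array had a median level of 9.13 with MCSE and 10.59 with PBS, and their summed intensity was 8543 and 21726. Of 4 measured genes of exocrine pancreas 1 was 2-fold lower, and of 4 of urothelium 1 was 2-fold higher, too few to be read against those shares. All 14 hepatocyte genes and all 9 adipocyte genes reached the median of all probes on both liver arrays. The summed intensity of the 67 kidney genes was 319885 with MCSE and 154648 with PBS in the liver pair, that of the hepatocyte genes 160365 and 187701, and that of the adipocyte genes 309628 and 254059. In the muscle pair the kidney genes summed to 56351 with MCSE and 49469 with PBS, the hepatocyte genes to 52111 and 56190 and the adipocyte genes to 146819 and 146423. Adrenal cortex genes, of the gland that lies on the kidney, had a median of 8.12 and 8.37 on the MCSE and PBS liver arrays, below the median of all probes, although Mc2r, which adipocytes also express, lay at 11.05 and 11.25. With 1 array per group, the difference between these lists was not tested. Whether RNA of kidney or of another tissue contributed to the differences of genes that several tissues share was not tested.

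**Figure D4:**
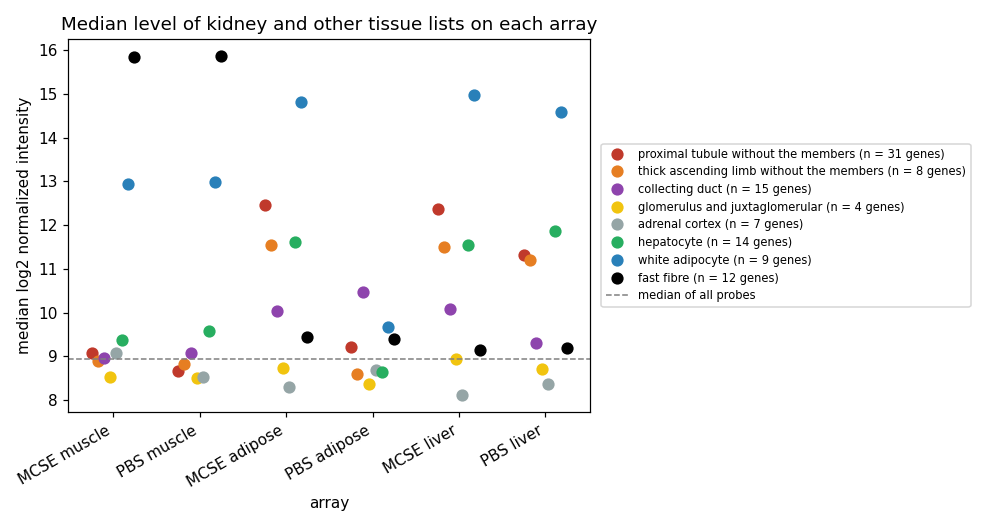
Median log2 normalized intensity (vertical axis) of 8 gene lists on each of the 6 arrays (horizontal axis), with the brightest probe of each gene and the number of genes in the legend, and the median of all probes as a dashed line. Proximal tubule and thick ascending limb genes stand well above the dashed line on the MCSE adipose, MCSE liver and PBS liver arrays together with hepatocyte and adipocyte genes, whereas glomerular and adrenal genes stay near or below it. Adipocyte genes are above the line on all 6 arrays, and hepatocyte genes also on the MCSE and PBS muscle arrays (9.38 and 9.57). Proximal tubule genes are slightly above it on the MCSE muscle (9.07) and PBS adipose (9.22) arrays.

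The genes whose levels were most like the mean profile of the 4, by Pearson correlation over the 6 arrays among 12255 genes, were Ggt1 (0.999), Timp4 (0.996), Tinag, Slc13a3, Miox and T2bp (0.995 each), and Rps19bp1 and Slc5a10 (0.994 each). Ggt1, the brush border gamma-glutamyltransferase, lay at 9.61 and 8.70 on the MCSE and PBS muscle arrays and at 13.19 and 12.20 on the MCSE and PBS liver arrays. Ggt1, Miox, Slc13a3, a dicarboxylate transporter, and Slc5a10, a sugar transporter, were on the proximal tubule list, and Tinag encodes an antigen of tubular basement membranes. Timp4, an inhibitor of metalloproteinases, had a narrow range, at 11.98 and 11.58 on the MCSE and PBS muscle arrays and 13.59 and 13.25 on the MCSE and PBS liver arrays. Of the 50 genes most alike, 12 were on a kidney list (24.0% of the 50 and 19.7% of the 61 kidney genes compared) and 0 on the hepatocyte list. Of all 12255 genes compared, 61 were on a kidney list and 14 on the hepatocyte list. With so few hepatocyte genes, nothing is read from their 0. Over the whole lists the median correlation was 0.86 for the 61 kidney genes and 0.87 for the 14 hepatocyte genes, against -0.05 for all genes compared. The ranking depended on the PBS adipose array. Without it, 5 of the 50 most alike were kidney list genes, and 1 of the 8 genes named here stayed among the 8 most alike. A correlation of at least 0.95 was reached by 4.52% of all genes compared, by 26 of the 61 kidney genes and by 3 of the 14 hepatocyte genes.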

How the data were processed

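RNA of the 6 samples was column-purified, amplified and labelled with Cy5 for one-colour arrays, per the labels' protocols. The authors deposited normalized intensity values on a linear scale for 29922 probes. Per the submitters' processing notes limma was used, with no version or step named. How background was corrected and arrays were normalized is not given in the sources used here, nor is a genome build. The 6 columns shared 1 distribution: after a floor, sorted log2 values differed from their median by at most 0.008. Such scaling can compress genes near the top of the scale.

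The platform annotation named 21020 probes with 1 gene symbol and left 8902 unnamed, and list symbols were matched through RefSeq synonyms. A floor was set at the 5th percentile (214.2) before log2. For each gene the brightest probe was used. Differences are log2 MCSE minus PBS or liver label minus muscle label, and a gene was called from 2-fold on. No test was made, since each group had 1 array. The pattern ranking and the 2-fold count of the liver pair were run on simulated data with genes of a known pattern put in. The simulated noise was below the SD per probe of these arrays, so this checks the code and not the results.

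The 4 genes, the lists and the rules were chosen with earlier results of these data known. Genes named were the 4, a set of 25 kidney genes whatever their values (2 are not reported here), the 8 most alike in pattern, which had to reach the median on an array and span at least 1 on the log2 scale, and markers of other tissues that moved with them. Genes named otherwise are marked in the text. The alternatives were no floor, 32 added before log2, quantile normalization, the mean over probes, centring, removal of a lowess trend, other filters and thresholds, Spearman's rho and leaving out the PBS adipose array. Urothelium and exocrine pancreas lists had medians of 9.41 and 10.21 on the MCSE liver array and 9.49 and 10.68 on the PBS liver array. Python 3.11.15, numpy 2.4.6, pandas 2.3.3, statsmodels 0.14.6 and matplotlib 3.10.9 were used.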

Additional observations from a re-analysis of the deposited data

Results flagged for a closer look

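Of the 4 genes and the named set of kidney genes, those measured in both pairs whose MCSE minus PBS difference had opposite signs in the muscle and liver pairs were set apart, without a test of the difference, since each pair had 1 array per treatment. Kap was 3.20 higher with MCSE in muscle and differed by -0.024 in liver, where it lay near the top of the scale on both arrays. Napsa differed by -0.19 in muscle and by 1.75 in liver. Egf differed by -0.05 in muscle and by 1.22 in liver. Aqp2 differed by -0.01 in muscle and by 0.66 in liver. The negative value was smaller than the SD per probe in each of the 4.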

How the results depend on the processing

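The levels and differences of Umod, Kap, Slc34a1 and Slc22a12 were recomputed 224 times, and 0 moved by as much as the SD per probe. Many of these could not move. Each gene had 1 probe, which lay above the floor, so leaving out the floor and taking the mean over probes returned the same values. Quantile normalization changed them little, since the arrays already shared 1 distribution. The count of 224 is therefore no measure of robustness. The widest shift was 0.06 in the muscle pair, 0.15 in the liver pair and 1.14 in the adipose pair. The last was that of Slc34a1 with the trend with brightness removed. With the MCSE adipose array in place of the MCSE liver array, chosen after seeing the data, Kap differed by -0.17 from PBS liver.

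Of 104 recomputed counts of the other kidney genes, 90 stayed within 1.5 times. In the muscle pair, the 3 genes 2-fold higher became 9 at 1.5-fold, 0 at 3-fold and 1 with an upper quartile filter. In the liver pair, the 27 higher genes became 42 at 1.5-fold and 8 at 3-fold, and the 0 lower became 2 at 1.5-fold and 1 with the MCSE adipose array in place of MCSE liver. Of the lower genes under the liver label, the 2 with MCSE became 4 at 1.5-fold and 1 at 3-fold, with an upper quartile filter, with 32 added and with the mean over probes, and the 4 with PBS became 1 with an upper quartile filter and 0 at 3-fold. The cause was not tested beyond the changed threshold or filter. Of the 50 genes most alike in pattern, 12 were on a kidney list, 5 without the PBS adipose array (10 of the 50 genes shared) and 6 with Spearman's rho (18 shared). No paired analysis was possible because each group held 1 array and so no replicate numbers to pair by. A fit with the 3 labels as blocks would take different tissues as replicates and was not made. Kap near the top of the scale and genes near the floor may have compressed differences, and without replicates the spread between mice is unknown.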
